A study of Phaseolus vulgaris
Paraburkholderia phymatum STM815 with 4 samples.

Results

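Among 32574 coding features of the common bean (*Phaseolus vulgaris*), 173 had far fewer reads in *nifA* nodules than in wild-type nodules while still being read in every library. They were chosen by their values. Unique gene reads were divided by a size factor for each library, and a member had at least 300 reads in both wild-type libraries, at least 10 in both *nifA* libraries, and a larger normalized *nifA* value of at most 0.25 times its smaller normalized wild-type value. Of the 3767 features that passed both read minimums, these were 4.59%. The reduction itself is therefore a description and was not tested.

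The RNA came from whole root nodules of the cultivar Negro Jamapa, grown without added nitrogen and collected 21 days after inoculation with *Paraburkholderia phymatum* STM815. One pair of libraries came from plants inoculated with the wild-type strain, and the other pair from plants inoculated with 1 insertional mutant of *nifA*. Reads of the plant and of the bacterium were obtained from the same RNA, with 2 independent biological replicates per strain.

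A root nodule is a plant organ in which bacteria living inside host cells reduce atmospheric nitrogen to ammonia. The plant feeds them with dicarboxylates, keeps oxygen low with leghemoglobin, and builds the ammonia into amides or, in bean, largely into ureides. NifA is the bacterial activator of the nitrogenase genes, so nodules of a *nifA* mutant do not fix nitrogen, and the host transcripts compared here are those of an organ without that supply.

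The libraries held 8526065 and 14004263 unique bean reads in the wild type and 14169013 and 10640013 in *nifA*, with size factors from 0.723 to 1.42. Replicate 1 of *nifA* stood apart, with 12153 bean features read against 17093 to 18695 in the other libraries. Bacterial reads made up 38.0% and 32.0% of all unique reads in the wild type and 7.97% and 12.0% in *nifA*. Reads of the *nifA* gene numbered 4036 and 3301 with the wild-type strain, among 5235029 and 6593465 unique bacterial reads. With the mutant they numbered 2562 and 2491, among only 1227068 and 1452624. These counts give no check of the labels, because an insertion does not remove the gene. The names of the wild-type and *nifA* libraries carry different years, so that strain and year cannot be told apart. The part of the bacterial share and of the year in the values below was not tested, and in whole nodules fewer cells of a type and less RNA per cell cannot be told apart.

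Most members could be given only by their position. The files name features by protein identifiers, and none of these matched the 34165 genes of the reference table. The study describes its table of bean genes as complete, but only a part of it was available here. That part paired 1998 features of chromosomes 10 and 11 with locus names, of which 339 passed the read minimums and 15 were members. All 15 were listed as hypothetical proteins, and none of the 128 paired features with a product name was a member, although only 27 of those passed the read minimums. Leghemoglobin and other defining nodule genes could therefore not be looked up, and the tissue was not checked by its markers. Positions below are those of the bean chromosomes in the authors' files, and lengths run from the start to the end of a feature with its introns.

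In wild-type replicate 1 the members ran from 287.7 to 125664 normalized reads with a median of 1225. In wild-type replicate 2 they ran from 223.8 to 154322 with a median of 1187. In *nifA* replicate 1 the range was 13.8 to 19779 and the median 94.0, and in *nifA* replicate 2 it was 10.9 to 18505 and the median 81.9. The median member thus stood above 1000 normalized reads in both wild-type libraries and below 100 in both *nifA* libraries. The range within each library was far wider than the step between strains, so that the most abundant members were higher in *nifA* nodules than most members were in wild-type nodules.

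**Figure D1:**
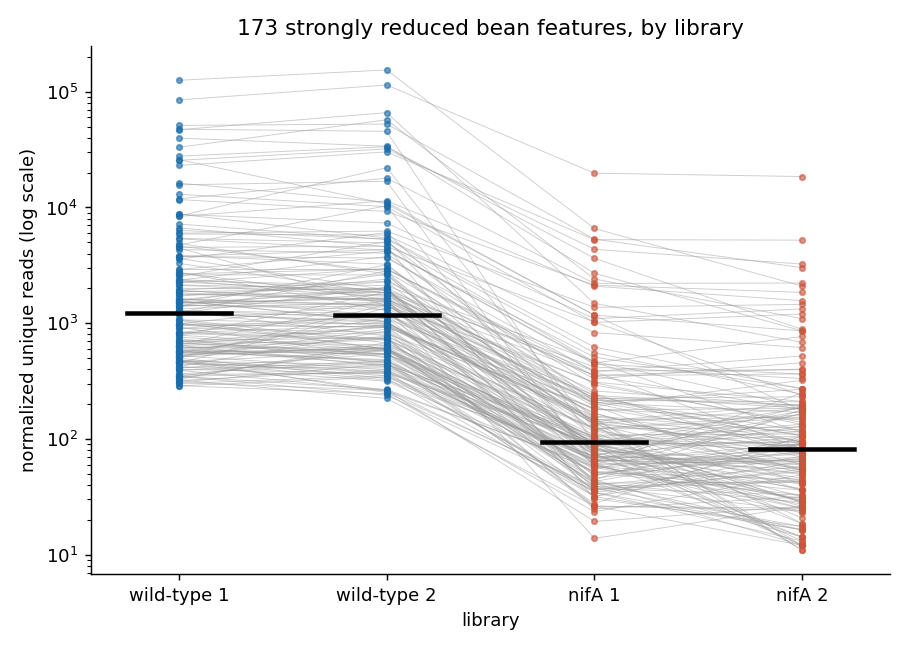
Normalized unique reads (log scale) of the 173 members in each of the 4 libraries, with a grey line for each member and a black bar at the library's median. Medians were 1225 and 1187 in the wild type and 94.0 and 81.9 in *nifA*, and every line steps down between the strains because the rule required it.

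The mean of the *nifA* libraries was lower than that of the wild-type libraries by 10.6-fold for the median member, with quartiles at 7.23-fold and 16.3-fold. The smallest difference was 4.34-fold and the largest 857-fold. A difference above 100-fold was seen in 6 members, above 32-fold in 21, above 16-fold in 44 and below 8-fold in 60. On the log2 scale the median member stood at -3.40, where the median of all 3767 features past the read minimums was -0.20. Another 285 features past the minimums had a ratio between the limit of 0.25 and 0.5, and 7 were at least 4-fold higher in *nifA* by the same comparison.

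As a share of all unique bean reads, the members made up 11.7% and 9.87% in the wild type and 0.439% and 0.543% in *nifA*. Without the most abundant member these shares were 9.98%, 8.30%, 0.405% and 0.525%, so that no single feature carried the sum. In TPM, the share of transcripts after division by feature length, the members summed to 101445 and 48089 in the wild type and to 1116.0 and 1307 in *nifA*. Shares of reads and TPM sums both depend on what else was read, so their step between strains is not the fold of the members. Of all TPM, 1 feature that is not a member took 20.7% and 41.7% with the wild-type strain and 25.2% and 28.5% with the mutant.

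The most abundant member in wild-type nodules was ESW31693 on chromosome 2, at chr2:42555814-42557127. It had 125664 and 154322 normalized reads in the wild type and 6583 and 2089 in *nifA*, a 32.3-fold difference of the means. It was also the highest member per length, with a wild-type mean of 106540 normalized reads per kilobase. Both *nifA* values lay far below both wild-type values, and replicate 2 was the lower of them.

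The next was ESW14607 on chromosome 7, at chr7:164014-167288, with 85038 and 114367 normalized reads in the wild type. It kept 19779 and 18505 normalized reads in *nifA*, the highest level of any member there, and was 5.21-fold lower. Its replicates were close within each strain. Neither identifier could be paired with a gene name.

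A short feature at chr7:10659373-10660074 had 46931 and 66021 normalized reads in the wild type against 1483 and 682.5 in *nifA*, 52.2-fold lower. Another, at chr7:7402593-7403876, had 51196 and 52579 against 5321 and 3023, 12.4-fold lower. The feature at chr3:28902866-28903347 had 25935 and 10732 against 1175 and 857.2, 18.0-fold lower. The features at chr7:10659373-10660074 and chr7:7402593-7403876 thus had like abundance in wild-type nodules but ended at different levels in *nifA* nodules. The chromosome 3 feature was less abundant in wild-type nodules, and its *nifA* values lay between those of chr7:10659373-10660074.

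At the lower end of the change among abundant members, chr8:368460-371459 had 11873 and 17941 normalized reads in the wild type and 2209 and 2223 in *nifA*, 6.73-fold lower. The feature at chr2:40309212-40311218 had 11710 and 9248 against 2132 and 1847, 5.27-fold lower. For both, the *nifA* replicates lay closer together than the wild-type replicates did. The feature at chr1:51618070-51619866 showed the opposite spread, with 16230 and 11098 in the wild type and 1172 and 174.7 in *nifA*.

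The smallest ratio of all members belonged to chr5:39924727-39926229. Before normalization it had 54447 and 64427 reads in wild-type nodules and 65 and 17 in *nifA* nodules. After normalization these were 47468 and 45484 against 89.9 and 18.6, 857-fold lower. Only 30.8% of the reads assigned to it were unique, the others fitting more than 1 place in the genome. Counted with all its reads it was 772-fold lower.

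The feature at chr9:33533519-33535887 followed, with 15695 and 16833 normalized reads in the wild type and 59.4 and 22.9 in *nifA*, 395-fold lower. At chr9:17970093-17973819 the values were 4521 and 4632 against 30.4 and 17.5, 191-fold lower. The wild-type replicates of both were nearly equal, all reads of both were unique, and each kept fewer than 60 normalized reads in either *nifA* library.

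Another 3 members were more than 100-fold lower. The feature at chr5:6051196-6052509 had 8438 and 22058 normalized reads in the wild type and 120.3 and 55.7 in *nifA*, 173-fold lower. The feature at chr4:12065975-12067069 had 7194 and 5279.98 against 73.3 and 25.1, 127-fold lower. The feature at chr6:1377294-1378292 had 4740.1 and 10333 against 63.6 and 75.3, 108-fold lower, and it was the only one of these with the higher *nifA* value in replicate 2. In all 3 the wild-type replicates lay less than 3-fold apart, which is small beside the step between strains.

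The ratio limit ran through a continuous range of values. Just inside it, chr9:1968556-1968888 had 360.9 and 370.6 normalized reads in the wild type against 89.9 and 36.0 in *nifA*. The feature at chr7:51620045-51621313 had 8376 and 11416 against 2088 and 1565, and that at chr9:12546437-12548057 had 700.9 and 648.1 against 123.0 and 161.6. Their ratios were all 0.249. Just outside it, chr4:2628836-2629444 had 888.4 and 479.4 against 120.3 and 119.0. The feature at chr9:4667494-4670385 had 580.6 and 466.6 against 117.5 and 102.6, and that at chr8:58080485-58082125 had 3503 and 3791 against 815.7 and 886.7. Their ratios were 0.251, 0.252 and 0.253, so the features on the far side of the limit were hardly different from those within it.

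The minimum of 10 reads mattered as well. It held back 105 features that met every other condition, 22 of which had no read in either *nifA* library. Inside it, 27 members had at most 20 reads in one of the *nifA* libraries, where counting error is large. At chr6:30739898-30741605, for example, the values were 3582 and 6078 normalized reads in the wild type and 132.7 and 10.9 in *nifA*.

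**Figure D2:**
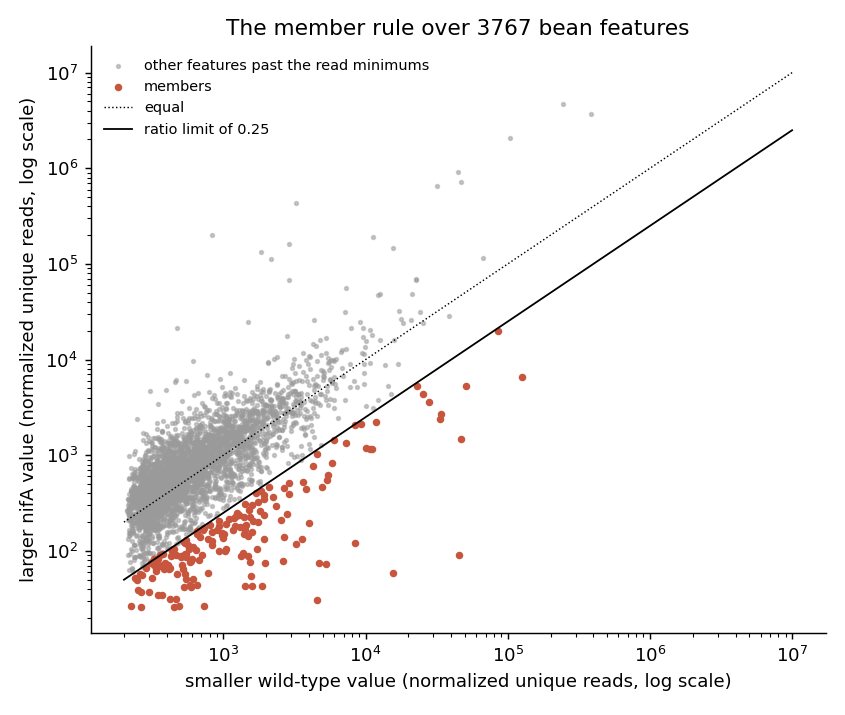
Smaller wild-type value against larger *nifA* value (normalized unique reads, both axes logarithmic) for the 3767 features past the read minimums, with the 173 members in red, a solid line at the ratio limit of 0.25 and a dotted line at equal values. Members lie below the solid line at every level of abundance, and 4.59% of the points are members.

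The fold difference was greater in the more abundant members. It had a median of 8.49-fold in the 78 members below 1000 normalized reads in the wild type, 11.6-fold in the 56 from 1000 to 3000, 15.3-fold in the 22 from 3000 to 10000 and 18.0-fold in the 17 at or above 10000. Part of this order is set by the rule, because a member with few wild-type reads and at least 10 *nifA* reads cannot show a large fold.

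Members were short. Their median length was 1972 bp, against 3814 bp for all features past the read minimums, and their quartiles were 1141 and 3236 bp against 2036 and 6788 bp. Per length, the wild-type mean had a median of 555.4 normalized reads per kilobase in the members and 176.8 in all features past the minimums. The lengths include introns, so these levels per kilobase are not levels of the spliced transcript.

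Neither length nor position was used by the rule. Members lay on all 11 chromosomes, from 6 on chromosome 10 to 24 on chromosome 2. As a share of the features past the read minimums, they ran from 2.91% on chromosome 10 to 6.16% on chromosome 8. Members that stood within 5 features of another member formed 10 groups with 22 members in all, and the other 151 stood alone.

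The most crowded group lay on chromosome 9, where 4 of 8 features within 78.7 kb were members. At chr9:31259627-31260256 the values were 27763 and 33496 normalized reads in the wild type and 3641 and 882.3 in *nifA*, 13.5-fold lower. At chr9:31274721-31281566 they were 33146 and 57276 against 2411 and 1093, 25.8-fold lower. These were followed by chr9:31296132-31296803, with 39743 and 33813 against 2704 and 857.2, 20.7-fold lower. All 3 were among the 8 most abundant members, and in each the second *nifA* library had the lower value.

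The fourth, chr9:31337688-31338278, had 1916 and 1589 normalized reads in the wild type and 37.3 and 42.6 in *nifA*, 43.9-fold lower. The other 4 features between them failed the read minimums and had at most 35.3 normalized reads in any library. Of the reads of the first feature only 64.7% were unique, against more than 96% in the other 3 members, so its values are less certain than those of its neighbours.

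**Figure D3:**
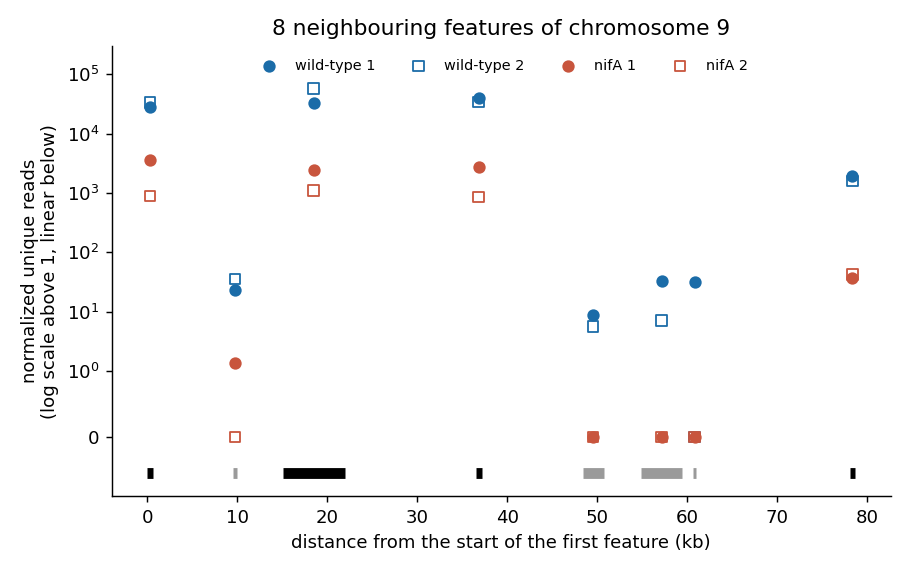
Normalized unique reads (log scale above 1, linear below) of 8 neighbouring features of chromosome 9 by distance in kb from the start of the first, in the wild-type (blue) and *nifA* (red) libraries, replicate 1 filled and replicate 2 open. Black bars along the bottom mark the extent of the 4 members and grey bars that of the 4 other features, none of which exceeds 35.3 normalized reads.

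In 5 places the neighbouring feature was itself a member, 1 of them inside the group just described. On chromosome 4, features at chr4:28466081-28466722 and chr4:28466914-28467944 lay 191 bp apart. The first had 25554 and 32064 normalized reads in the wild type and 4349 and 3243 in *nifA*, 7.59-fold lower. The second had 23079 and 30228 against 5273 and 5222, 5.08-fold lower. The pair thus had like numbers of normalized reads in wild-type nodules and kept more than 3000 in *nifA* nodules.

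On chromosome 8 the pair was much less abundant, with 461.2 and 263.3 normalized reads against 37.3 and 17.5 at chr8:15790416-15790721, 13.2-fold lower. Its neighbour at chr8:15793495-15794470 had 2735 and 1606 against 203.2 and 83.0, 15.2-fold lower. Only 66.2% and 86.9% of the reads of these features were unique. In both features replicate 1 was the higher one in each strain.

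On chromosome 9, chr9:10055651-10058682 had 510.0 and 888.8 normalized reads against 35.9 and 71.0, 13.1-fold lower. Its neighbour at chr9:10062713-10070020 had 3796 and 4321 against 442.4 and 363.6, 10.1-fold lower. The other pair of that chromosome lay near the lower read minimum, with 470.8 and 351.6 against 70.5 and 64.4 at chr9:12309175-12311803, 6.09-fold lower. Beside it, chr9:12317214-12321001 had 323.4 and 223.8 against 26.3 and 24.0, 10.9-fold lower. In each of these pairs the fold differences of the neighbours lay within 2-fold of each other.

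The remaining groups were pairs with other features between them. On chromosome 4, chr4:43664202-43673020 had 2392 and 1935 normalized reads against 132.7 and 53.5, 23.2-fold lower, and chr4:43688142-43692597 had 2143 and 1958 against 74.7 and 12.0, 47.3-fold lower. In another pair of that chromosome, chr4:44348702-44350879 was 14.6-fold lower and chr4:44374519-44379128 was 31.2-fold lower. On chromosome 7, a pair with 12.8-fold and 29.97-fold differences enclosed a feature at 670.4 and 341.0 in the wild type and 548.8 and 433.5 in *nifA*. Another feature enclosed there, with too few reads to be a member, was higher in *nifA*, with 183.1 and 98.8 against 275.1 and 244.6. On chromosome 3 the enclosed feature past the read minimums was lower in both *nifA* libraries, but only 1.49-fold, with 978.2 and 1106 against 875.1 and 522.0. On chromosome 2 the enclosed feature past the minimums, chr2:46656672-46659237, had 321.7 and 261.2 against 37.3 and 114.7, 3.84-fold lower. The next feature there, with too few reads to be a member, had 206.6 and 153.2 against 0 and 7.64. Another feature there had few reads, with 13.9 and 19.1 against 35.9 and 14.2. Features between members thus ranged from higher values in *nifA* on chromosome 7 to differences near or beyond the 4-fold limit on chromosome 2, where they also differed among themselves.

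Of the 15 members with a locus name, PHAVU_011G1818001g had the largest difference. It had 4887 and 2664 normalized reads in the wild type and 138.2 and 83.0 in *nifA*, 34.1-fold lower. PHAVU_011G016100g had 3629 and 1944 against 236.4 and 93.9, 16.9-fold lower. In both, wild-type replicate 1 and *nifA* replicate 1 were the higher of their pairs.

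PHAVU_011G008700g was the only one with an annotated function in the table of the study, where it carries the terms acid phosphatase activity and dephosphorylation. Acid phosphatases release phosphate from organic esters. It had 2335 and 2107 normalized reads in the wild type and 470.0 and 187.8 in *nifA*, 6.75-fold lower. The next locus, PHAVU_011G008800g, had 954.7 and 1135 against 453.5 and 424.8, 2.38-fold lower, and is not a member.

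PHAVU_011G059100g had 2242 and 2972 normalized reads against 351.2 and 364.7, 7.28-fold lower, and PHAVU_011G061500g had 2330 and 1741 against 141.0 and 199.8, 11.9-fold lower. PHAVU_011G072400g had 1619 and 1418 against 165.9 and 60.1, 13.4-fold lower. PHAVU_011G042600g had 966.0 and 925.5 against 181.1 and 146.3, 5.78-fold lower. The wild-type replicates of each lay within 2-fold of each other.

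The remaining 8 named loci had between 301.7 and 925.0 normalized reads in the wild type and at most 92.6 in either *nifA* library. PHAVU_011G057800g, with 399.3 and 368.5 against 34.6 and 16.4, was 15.1-fold lower, the largest difference among them. PHAVU_010G040000g, with 320.0 and 394.6 against 69.1 and 78.6, was 4.84-fold lower, the smallest. PHAVU_011G068300g had 422.0 and 315.6 against 52.5 and 36.0, 8.33-fold lower by unique reads, but only 55.1% of its reads were unique and with all reads it was 3.81-fold lower.

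Reads shared with other places were uncommon in the set. All reads of 141 members were unique, and 10 members had less than 90% unique reads. The extent of 2 members overlapped another feature. The counting was not stated to use strand, so reads of those 2 could belong to the overlapping feature.

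Replicates of the wild type were close to each other. The log2 of replicate 2 over replicate 1 had a median of -0.06 and a median absolute value of 0.34 in the members, against -0.10 and 0.35 in the other 3594 features past the minimums. More than 2-fold apart were 15 members (8.67%), against 8.24% of the other features, and no member was more than 4-fold apart. The spread of the members in wild-type nodules was therefore like that of other features.

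The *nifA* replicates were further apart. The log2 of replicate 2 over replicate 1 had a median of -0.43 and a median absolute value of 0.79 in the members, against 0.00 and 0.48 in the other features. Replicate 2 was the lower one in 111 of 173 members (64.2%) and in 49.9% of the other features. More than 2-fold apart were 68 members (39.3%) against 18.4%.

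Of the 19 members that differed more than 4-fold between the *nifA* libraries, 17 were lower in replicate 2. The exceptions were chr6:18445532-18448392 and chr7:47467835-47473204. The median member had only 68 and 75 reads in the *nifA* libraries before normalization, and the part of counting error in this spread was not tested.

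The difference between the *nifA* libraries also went with abundance. Replicate 2 was lower in 60.3% of members below 1000 normalized wild-type reads and in 46.4% of the other features of that class. It was lower in 57.1% against 55.2% from 1000 to 3000, in 77.3% against 65.5% from 3000 to 10000, and in 88.2% against 81.6% at or above 10000. At high abundance, features that are not members thus leaned the same way. The values chose the members, so these shares are descriptions.

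**Figure D4:**
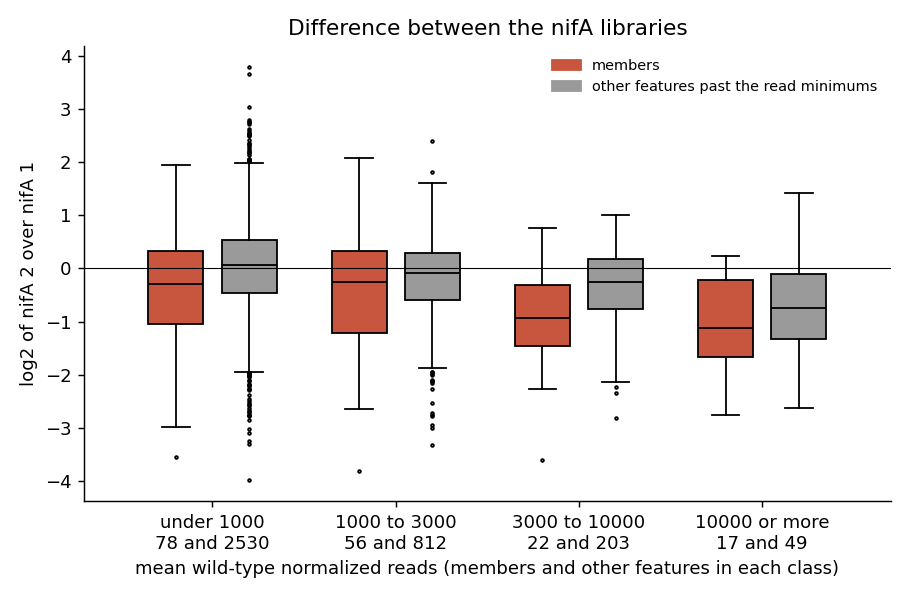
Log2 of *nifA* replicate 2 over *nifA* replicate 1 for members (red) and the other features past the read minimums (grey), in 4 classes of mean wild-type normalized reads, with the number of members and other features under each class. Boxes span the quartiles with the median as a line, whiskers reach 1.5 times the box height, and the median of the members lies below that of the other features in each class.

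Fitted across 15507 bean features with edgeR's quasi-likelihood test, 214 (1.38%) were lower in *nifA* nodules at a Benjamini-Hochberg adjusted p below 0.05, and 27 (0.174%) were higher. All 173 members were tested and 123 were among the lower ones. The rule used the same contrast, so nothing is read from that count. By the threshold of the study, an absolute log2 difference of at least 1 and an unadjusted p of at most 0.02, 1023 features (6.6%) were lower and 387 (2.5%) higher, and all 173 members were among the lower ones. The p-values measure only the spread between these 4 libraries, and when reads shared between places were counted too, 57 features were lower at the adjusted threshold, 24 of them members. Without wild-type replicate 1 or 2 the count was 425 or 470, and without *nifA* replicate 1 or 2 it was 949 or 2455. The count of higher features moved as widely, from 4 with shared reads to 458 without *nifA* replicate 2.

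Among the 3767 features past the read minimums, 1440 (38.2%) had both *nifA* values below both wild-type values. The members are the far end of that larger group. With strain and library year running together, this share cannot be told apart from a difference between years.

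The genes that the study discussed by locus were read beside the members. Of 62 such loci, 12 could be paired with the files, none was a member and 6 passed the read minimums. By the threshold of the study, set here on the edgeR fit rather than on its own DESeq fit, 8 of the 12 were lower in *nifA* and 1 was higher. The shares of all features tested were 6.6% and 2.5%. At the adjusted threshold 1 was lower and none was higher, at shares of 1.38% and 0.174% of all features tested. Passing, in what follows, refers to the adjusted threshold alone. The study chose these genes on the same samples, so they are not independent evidence of a direction.

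The one that passed was PHAVU_010G051500g, a PIN or PIN-like auxin transporter, a family of proteins that carry auxin out of cells or within them. It had 996.5 and 1118 normalized reads in the wild type and 27.6 and 3.28 in *nifA*, a log2 difference of -6.17 (SE 0.84, adjusted p = 0.0291 with edgeR). It missed the members only by its 3 reads in *nifA* replicate 2, having 20 in *nifA* replicate 1. With shared reads counted for all features it no longer passed (adjusted p = 0.0724 with edgeR). All of its own reads were unique, and its log2 difference in that fit was -6.18. Without *nifA* replicate 1 its log2 difference was -8.25.

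Among the 6 listed genes past the read minimums, the ratios nearest the limit belonged to a hydroxyisourate hydrolase and a gene for disease resistance. PHAVU_010G034000g, the hydrolase, acts in the ureide pathway by which bean nodules export nitrogen. It had 301.7 and 299.3 normalized reads against 78.8 and 53.5, a ratio of 0.263, and did not pass (adjusted p = 0.0930 with edgeR), with only 36.3% of its reads unique. With all its reads it had 1019 and 805.3 normalized reads against 93.0 and 55.9, 12.3-fold lower where unique reads gave 4.54-fold, and still did not pass (adjusted p = 0.0585 with edgeR). The disease resistance gene PHAVU_010G028700g had 741.1 and 405.9 against 15.2 and 104.8, a ratio of 0.258, and did not pass (adjusted p = 0.162 with edgeR). With DESeq2 both genes passed (adjusted p = 0.00748 for the hydrolase and 0.00364 for the resistance gene), as they did without a filter on low counts. With other size factors, total reads or a replicate block, neither gene passed.

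Of the genes linked to the control of nodule number, the CLE pre-propeptide gene PHAVU_011G135900g, which encodes the precursor of a signalling peptide, had 279.0 and 319.1 normalized reads against 63.6 and 0. Its ratio of 0.228 lay inside the limit, and it missed the members by having no read in *nifA* replicate 2. The CLAVATA1-related receptor kinase gene PHAVU_011G042100g had 369.7 and 203.3 against 40.1 and 76.4. Neither passed the adjusted threshold, with adjusted p = 0.336 and 0.150 in edgeR. By the threshold of the study the receptor kinase gene was lower (log2 difference -2.29, unadjusted p = 0.00773 with edgeR). The CLE gene did not meet these limits in edgeR (unadjusted p = 0.0545), whereas the study, with its own DESeq fit, reported it as significantly lower. With DESeq2 the adjusted p was 0.0202 for the receptor kinase gene and 0.640 for the CLE gene. Without a filter on low counts it was 0.00796 and 6.77e-05 with edgeR. With other size factors, total reads or a replicate block, neither gene passed. For both, the *nifA* values lay below the wild-type values without overlap.

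Cellulose synthase homologues PHAVU_011G211500g, with 1279 and 941.8 normalized reads against 253.0 and 445.5, and PHAVU_011G089900g, with 399.3 and 460.3 against 49.8 and 149.6, did not pass either (adjusted p = 0.149 and 0.182 with edgeR). Both passed with DESeq2 (adjusted p = 0.0163 and 0.0314) and without a filter on low counts, but not with other size factors, total reads or a replicate block. The GH3 gene PHAVU_011G153400g, of a family that joins auxin to amino acids, went the other way with 833.5 and 689.0 against 2617 and 2779. Its log2 difference was 1.81 (SE 0.36, adjusted p = 0.0756 with edgeR), and over the alternatives run the adjusted p lay between 0.000108 (DESeq2) and 0.156 (without wild-type replicate 2), and below 0.05 when either *nifA* replicate was left out. It was the one of the 12 listed genes whose *nifA* values lay above its wild-type values. The other 11 had both *nifA* values below both wild-type values. That order was shown by 38.2% of all features past the read minimums, but only 6 of the 12 listed genes passed those minimums. For the remaining 4, a tubulin component, a CYP81 hydroxylase and 2 more disease resistance genes, the adjusted p in edgeR ran from 0.0938 to 0.476. With DESeq2 it ran from 0.00214 to 0.295.

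**Figure D5:**
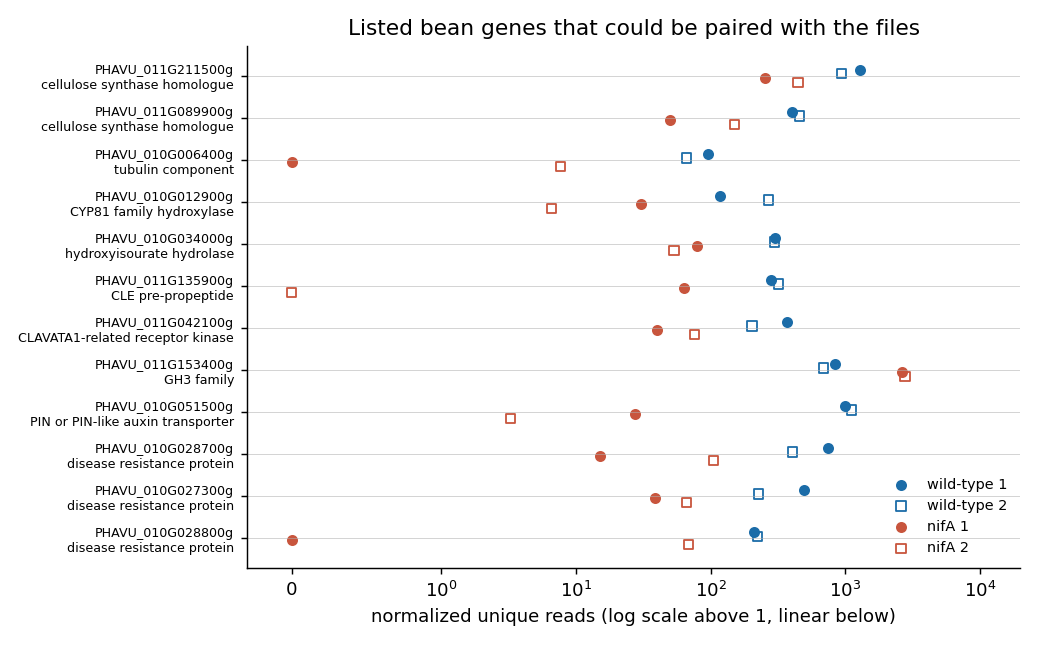
Normalized unique reads (log scale above 1, linear below) of the 12 listed genes that could be paired with the files, in the wild-type (blue) and *nifA* (red) libraries, replicate 1 filled and replicate 2 open. In 11 genes both red points lie left of both blue points, and in the GH3 gene they lie to the right at 2617 and 2779.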

How the data were processed

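The authors trimmed reads to 70 bases, mapped them to the bean chromosomes and the bacterial genome with CLC Genomics Workbench 11.0 allowing 2 mismatches, and deposited, for each library and coding feature, unique and total gene read counts and TPM values. The deposited counts are not normalized, and the TPM values, scaled by the authors to the length of each feature, were used here only for sums. Unique read counts were divided by median-of-ratios size factors from the 11485 features above 0 in all 4 libraries. The members and lists were chosen with earlier results of these data known. edgeR 4.0.16 (TMM, quasi-likelihood; limma 3.58.1, R 4.3.3) was fitted on the unique counts of the 4 libraries with no block, and DESeq2 1.42.0 was an alternative. The member rule and the edgeR fit were each tested on simulated data. The data for the rule held counting error alone, so that test does not show how the rule behaves with the wider spread between these replicates.

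The features named were members with a locus name, those with the 3 smallest and 3 largest ratios and 3 just outside, directly neighbouring members, and by identifier the 2 most abundant; other members given by position were added after their values were seen, for their abundance, their fold, their spread or their group. Members were not grouped by product class, because no member could be paired with a product name. Columns of the authors' own comparisons were not used. Replicates of a strain were distinct libraries (chi-square per degree of freedom of 158 and 132). Sequences were not used here.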

Additional observations from a re-analysis of the deposited data

How the results depend on the processing

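The rule gave 173 members. With a minimum of 1000 wild-type reads it gave 97, and leaving out 1 library, which relaxes the rule, gave 247 to 326. Other size factors, ratio limits and minimums, total reads and a filter on unique reads gave 123 to 257. The median log2 difference of the 173, -3.40, stayed between -3.57 and -3.23 in every alternative run. The 214 features lower at the adjusted threshold became 935 with DESeq2, 1012 without a filter on low counts, 57 with total reads, 495 with the replicate block and 1023 by the threshold of the study; leaving out 1 library gave 425 to 2455, the highest without *nifA* replicate 2. The 27 higher features became 323 with DESeq2, 340 without a filter, 4 with total reads, 118 with the replicate block and 86 to 458 without 1 library. Of the members, 24 to 173 were called in these fits. The replicate numbers are no pairs by the labels, and same-numbered libraries did not deviate together (correlation 0.058). For the 12 listed genes, 43 of 108 alternative values newly passed the threshold and 1, the auxin transporter with total reads (adjusted p = 0.0724 with edgeR), no longer did; none reversed. The GH3 gene passed with DESeq2, without a filter, with the replicate block (adjusted p = 0.0411 with edgeR) and when either *nifA* replicate was left out. Unique exon reads were not run, since these files hold none. With at most 20 reads in a *nifA* library, the fold of 27 members is limited by counting error.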
